A study of Homo sapiens with 6 samples.

Results

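In KY170, a line from a squamous cancer of the esophagus, and in KY170R, its radioresistant derivative, 34 genes had a probe that was at least 4-fold dimmer at both 8 h and 24 h than at 0 h in both lines. These 34 genes are the subject of the report. They were chosen on 4 differences, 8 h against 0 h and 24 h against 0 h in KY170 and the same in KY170R, so the size of each drop is a description and carries no test. Of 48803 probes on the array, 27578 carried 1 gene symbol, and 8700 of the probes were bright enough on both 0 h arrays to show a 4-fold drop at all. The 34 members made up 0.391% of these 8700. In all, 45 probes met the 4-fold criterion. Of these, 36 had 1 symbol, 8 had none and 1 had several, and ATOH8 and MAFF were left out by name. The rule also bars ACSS2 and the symbols that start with KRT, KLK, HIST, H1-, H2, CXCL, IL1, FOS, JUN, DUSP or SPRR, but no probe of these met the criterion. The rule goes by symbol, so H4C12, a histone gene whose symbol has none of these beginnings, is a member.

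KY170 (kyse170 in the labels) is the parental, radiation-sensitive line, and KY170R (kyse170R) was derived from it by continuous fractionated irradiation and is described as resistant. Cells of both were grown in RPMI medium with serum and irradiated with a linear accelerator, and total RNA was hybridised to Illumina Human-6 V3 bead arrays. The 6 groups, KY170 at 0, 8 and 24 h and KY170R at 0, 8 and 24 h, held 1 array each, so no group has a replicate spread of its own. The sources used here give no radiation dose for the arrays. They name the first array time as 0 h after irradiation, while RT-PCR of these lines is described with a first sample taken prior to it, so whether the 0 h cells of the arrays were irradiated is not settled. The methods describe triplicate profiling, and whether a column pools such repeats is not given.

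An mRNA level is set by synthesis and decay, and an array reads only the level that results, relative to the rest of the RNA on that array. In RNA of a whole culture, fewer cells that express a gene and less of its RNA per cell cannot be told apart. Squamous carcinoma cells keep an epithelial program of junction, polarity and keratin genes next to genes that every dividing cell uses, and ionizing radiation is known to change the transcription of many genes. The 34 genes were not tested for a common pathway, and no more than 2 of them lay on any gene list used here. They include an apical polarity protein and a claudin, several genes of the primary cilium, mitochondrial proteins, enzymes of steroid, lipid and glycan metabolism, channel subunits, the RNA component of telomerase and a histone gene. This grouping was made after the values had been seen.

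Values are probe intensities, background-subtracted and normalized between arrays by the authors. The array medians lay between 6.458 and 6.470, 29.9% of the values on each array were below 0, and the most negative value of the table, 24.5 below 0, set the limit of measurement. A value at or below 24.5 was raised to that limit before log2 was taken, so a fold against such an array is a lower bound, written as "at least". On the 17433 probes above the limit on at least 2 arrays, the lines correlated at r = 0.970, 0.980 and 0.973 at 0, 8 and 24 h (across probes, which are not independent replicates). Within a line, the 0 h array correlated with the later arrays at 0.888 to 0.924, and the 8 h and 24 h arrays with each other at 0.957 and 0.966. The 0 h arrays thus stood apart, and every member is defined against them.

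The cells carried the markers of an epithelial line. All 13 epithelial and squamous markers on the array exceeded the limit on at least 1 array and 11 did so on all 6. KRT19 exceeded it on 1 array and CLDN4 on 2. The list had a summed intensity of 58800 to 59700 at 0 h and 58500 to 67800 at the later times. Of 12 immune markers, 7 were below the limit on all 6 arrays, PTPRC, CD3D and LYZ among them. CD14, CD68 and CSF1R were above it on all 6, with highest intensities of 62.3, 1121.2 and 439.4. Of 14 mesenchymal markers, 9 were below the limit on all 6 arrays, including COL1A2, COL3A1 and FN1. VIM, PDGFRA, ACTA2 and TWIST1 were above it on all 6, with highest intensities of 52.4, 215.9, 735.1 and 487.2. Of 10 endothelial markers, 7 were below it on all 6, including VWF and KDR. PECAM1, CDH5 and ESAM reached 76.0, 127.4 and 150.1. The markers that were measured summed to less at the later times than at 0 h: 624 to 1220 against 1540 to 1580 for the immune list, 445 to 811 against 967 to 1490 for the mesenchymal list and 54.6 to 125 against 177 to 350 for the endothelial list. The neural and glial list, of which 5 of 14 markers were below the limit throughout, summed to 5090 to 7550 later and 6560 to 6860 at 0 h. The part of these lists in the drop of the members was not tested.

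**Figure D1:**
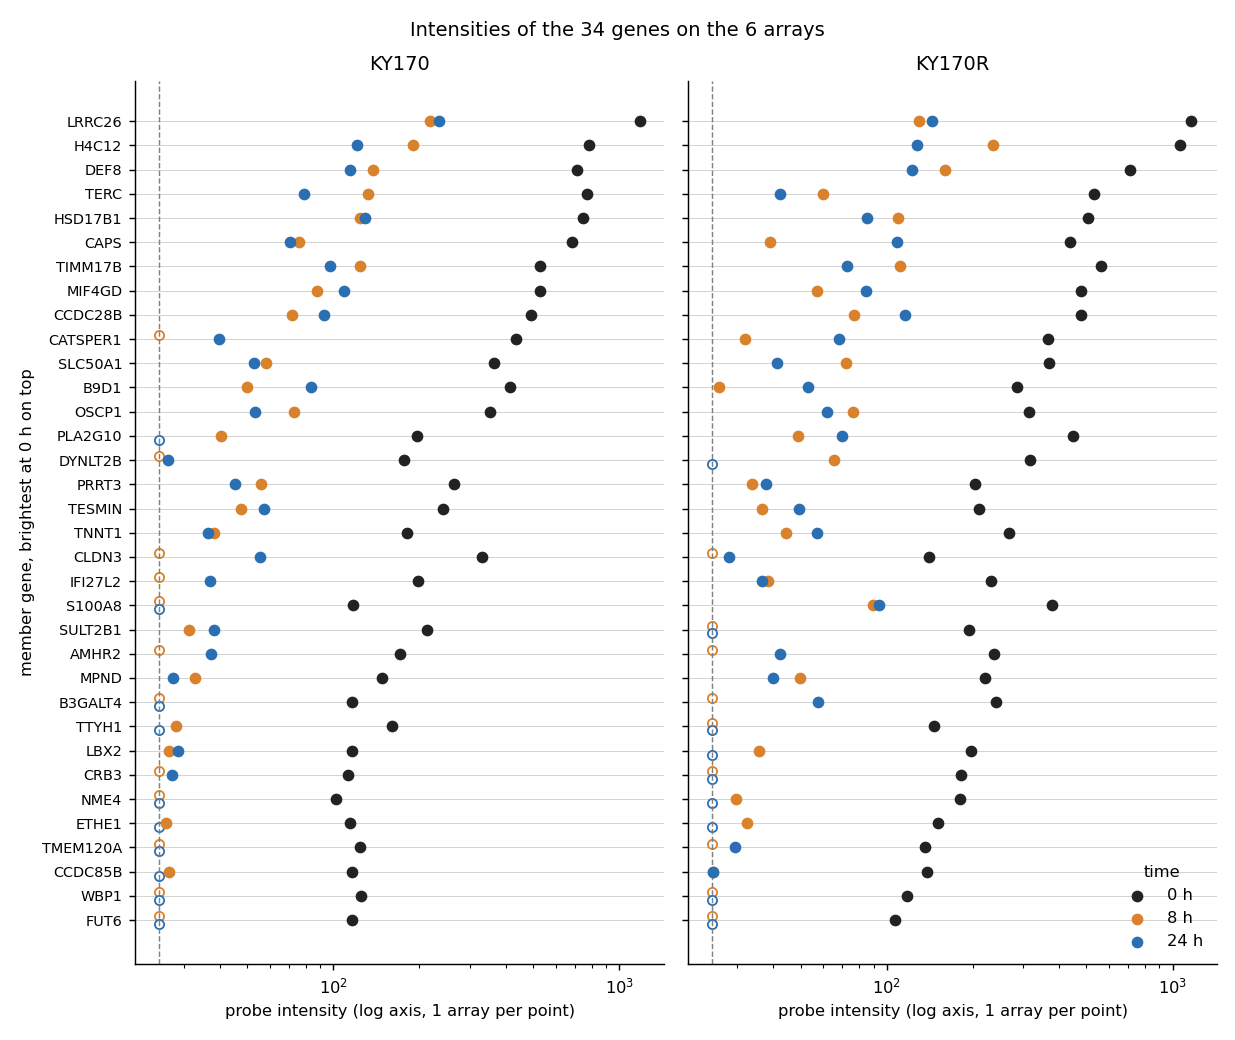
Probe intensity (log axis) of the 34 genes at 0, 8 and 24 h in KY170 and KY170R, 1 array per point, with values at or below the limit of 24.5 (dashed line) drawn as open circles on it. The 0 h points lie between 102 and 1183.1 and all later points between the limit and 235.7.

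At 0 h the intensities of the members ran from 102.0 to 1183.1, with medians of 205 in KY170 and 254 in KY170R, against 666 and 660 for the 8700 probes that could have passed. Later intensities ran from -0.9 to 235.7. The median log2 change of the members was -2.35 at 8 h and -2.41 at 24 h in the parental line, -2.55 and -2.49 in the resistant line, where the 8700 probes had medians of -0.13, -0.22, -0.15 and -0.26. Only 16 members stayed above the limit on all 6 arrays, and their folds are measured throughout. For 16 others between 1 and 3 of the 4 later arrays were at the limit, and for WBP1 and FUT6 all 4 were, so that these 2 have only bounds.

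The highest 0 h intensity was that of LRRC26, the auxiliary subunit that lets the BK potassium channel open at resting voltage. Its probe (ILMN_2249018) read 1183.1, 217.8 and 234.3 at 0, 8 and 24 h in KY170 and 1157.2, 129.7 and 144.5 in KY170R. The later levels were 5.05- to 8.92-fold lower, and KY170R was the dimmer line at both later times, while the lines were level at 0 h (ratio 0.978). CATSPER1, a pore subunit of the sperm calcium channel, read 433.7, 20.9 and 39.9 in KY170, with 366.3, 32.0 and 68.1 in KY170R. It had the largest bound at 8 h in KY170, at least 17.7-fold, and it was higher at 24 h than at 8 h in both lines. TTYH1, of the tweety family of chloride channels, read 160.9, 28.2 and 4.9 and then 146.5, 6.7 and 12.7, so that 3 of its 4 later arrays were at the limit.

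Of the RNA and chromatin genes, TERC, the template RNA of telomerase, stood out by the size of its drop. The TERC probe (ILMN_1766573) read 771.2, 131.9 and 78.9 in KY170, with 529.9, 59.9 and 42.4 in KY170R. Its smallest drop, 5.85-fold, was the largest smallest drop of any member, and its levels were 9.77-fold lower at 24 h in KY170 and 12.5-fold lower in KY170R. TERC was lower at 24 h than at 8 h in both lines. H4C12, a histone H4 gene, read 783.3, 189.7 and 121.1 in KY170, with 1061.9, 235.7 and 127.8 in KY170R, also lower at 24 h than at 8 h. Histone H4 genes are near-identical copies, so this signal may be shared among them. The methods do not say how the RNA was labelled, and which forms of TERC and H4 RNA these probes read is not known. MIF4GD, which binds the stem-loop binding protein of histone mRNA, read 529.2, 87.6 and 109.1 in KY170, with 479.4, 57.0 and 84.9 in KY170R. It differed from H4C12 in being higher at 24 h than at 8 h in both lines. Of the other telomerase genes measured, none was 2-fold lower or higher in all 4 differences: DKC1, which binds the RNA, read 5385.5, 12192.7 and 9708.5 in KY170, with 4642.5, 11994.0 and 9189.6 in KY170R, and NOP10, NHP2, GAR1, WRAP53 and NAF1 had mean log2 changes of -1.2 to 0.26.

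The junction and polarity members were CLDN3 and CRB3. CLDN3, a claudin of tight junctions, read 330.3, 19.1 and 55.3 in KY170, with 140.6, -0.5 and 28.0 in KY170R. It was at the limit at 8 h in both lines and above it at 24 h in both, at 5.97-fold and 5.02-fold below the 0 h level. CRB3, the Crumbs protein of the apical membrane, read 112.1, 17 and 27.3 in KY170, with 182.6, 20.3 and 22.9 in KY170R at the probe the rule selected. Another CRB3 probe (ILMN_1723092) read 3285.8, 873.0 and 1141.8 and then 3888.9, 1131.6 and 1196.7, a mean drop of 3.32-fold. All 3 probes of this gene were lower on all 4 later arrays. Among 14 measured genes of a list for tight junction and polarity, CLDN3 and CRB3 were the 2 that were at least 2-fold lower in all 4 differences, and 0 were as much higher. The share of all 10612 measured genes was 6.18% for lower and 7.89% for higher. Both lower genes are members, which the rule chose for a drop in these differences, so their count is not a result about the list. The median mean change of the list was 0.38, against -0.07 over all measured genes. CDH1, the epithelial cadherin, went the other way with 3197.9, 4593.2 and 5759.8 in KY170, with 2763.9, 4016.1 and 7588.1 in KY170R. In a wider family chosen after the values had been seen, of Crumbs-complex genes and all claudins, 5 of 16 measured genes were 2-fold lower in all 4 differences, namely CRB3, CLDN3, CLDN9 and the polarity genes PARD6A and LIN7B. PALS1, which binds the tail of Crumbs proteins, and its partner PATJ had higher mean levels later, with mean log2 changes of 1.12 and 1.53.

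At least 3 members take part in the primary cilium or its transport. B9D1, a protein of the ciliary transition zone, read 414.1, 49.9 and 83.5 in KY170, with 285.9, 25.9 and 53 in KY170R. It was lowest at 8 h, 8.29-fold and 11-fold below 0 h, and higher at 24 h in both lines. CCDC28B, which modifies Bardet-Biedl syndrome and acts in cilium assembly, read 489.3, 71.6 and 92.5 and then 476.7, 76.6 and 116.3, with the same order of times. DYNLT2B, a light chain of the dynein-2 motor, read 176.7, 10.8 and 26.3 in KY170, with 317.8, 65.5 and 23.3 in KY170R, so the order of 8 h and 24 h differed between the lines. In a family of transition zone genes chosen after the values had been seen, B9D1 and its partner B9D2 were 2-fold lower in all 4 differences, TMEM67 was 2-fold higher in all 4, and 11 of the 14 measured genes were neither. B9D2 read 235.0, 109.6 and 40.5 in KY170, with 247.9, 92.6 and 42.0 in KY170R, with its lower value at 24 h where B9D1 had it at 8 h.

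Of the mitochondrial members, TIMM17B, a subunit of the inner membrane translocase that imports proteins, read 526.5, 123.4 and 97.3 in KY170, with 563.7, 111.8 and 72.7 in KY170R. Its drop was 4.27-fold to 7.76-fold and was larger at 24 h in both lines. Its paralog TIMM17A read 42.8, 182.0 and 83.6 and then 14.6, 119.3 and 38.6, higher than at 0 h on all 4 later arrays. The 2 paralogs thus went opposite ways on every later array. ETHE1, the persulfide dioxygenase of sulfide breakdown, read 114.3, 25.9 and 16.8 in KY170, with 151.6, 32.6 and 19.2 in KY170R. NME4, the nucleoside diphosphate kinase of mitochondria, read 102.0, 9.0 and 5.5 in KY170, the lowest 0 h value of any member, and 180.4, 29.7 and 21.1 in KY170R. Both were at the limit at 24 h in both lines. Of the other nucleoside diphosphate kinases, NME3 read 5022.0, 2359.4 and 2209.4 and then 5604.0, 1871.5 and 1743.2, a mean drop of 2.61-fold. NME1 and NME2 had mean log2 changes of -0.24 and -0.3, and NME6 had -0.83, below 0 h on all 4 later arrays.

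The enzymes of steroid, lipid and glycan metabolism were HSD17B1, SULT2B1, PLA2G10, FUT6 and B3GALT4. HSD17B1, which turns estrone into estradiol, read 748.6, 123.4 and 129.4 in KY170, with 506.1, 110.0 and 85.3 in KY170R. Of 9 measured genes of its family, HSD17B8 and HSD17B14 were also 2-fold lower in all 4 differences, while HSD17B12 read 1592.0, 2605.2 and 3877.6 in KY170, with 1421.7, 3021.9 and 4178.8 in KY170R. The family thus held genes that were lower and genes that were higher after 0 h. SULT2B1, a sulfotransferase of cholesterol in squamous epithelium, read 212.4, 31.3 and 38.2 in KY170, with 194.1, 5.6 and 20.1 in KY170R, above the limit later in the parental line alone. PLA2G10, a secreted phospholipase A2, read 196.0, 40.5 and 21.3 in KY170, with 447.6, 49.1 and 69.8 in KY170R. At 0 h it was 2.28 times as bright in KY170R.

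FUT6, an alpha-1,3-fucosyltransferase of Lewis antigens, read 116.3, 7.7 and -0.9 in KY170, with 107.4, 17.3 and 8.5 in KY170R. All 4 later values were below the limit, which gives at least 4.38-fold. FUT3, its close paralog and neighbour on chromosome 19, read 776.8, 127.7 and 330.2 in KY170, with 510.3, 126.1 and 245.4 in KY170R, lowest at 8 h, and the 2 probes may share transcripts. On the list of fucosyltransferases, sialyltransferases and mucins, FUT6 and FUT3 were 2-fold lower in all 4 differences among 10 measured genes, GCNT1 was 2-fold higher, and the median mean change was -0.98. B3GALT4, a galactosyltransferase of gangliosides, read 115.9, 13.6 and 23.9 in KY170, with 241.1, 10.4 and 57.6 in KY170R, above the limit later only at 24 h in KY170R. On the other 30 lists, which covered the cell cycle, DNA repair, p53 targets, stress responses, squamous differentiation, cell type markers and signalling, there was no member. Members were only 0.391% of the 8700 probes that could have passed, and these lists held 3 to 25 measured genes each. The lack of a member on them therefore says little.

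S100A8 and CAPS bind calcium. S100A8, which pairs with S100A9 in calprotectin, read 116.8, 13.4 and 11.3 in KY170, with 378.4, 89.5 and 94.1 in KY170R. It lay just inside the threshold with a smallest drop of 4.02-fold. S100A9 read 1173.9, 236.9 and 315.9 in KY170, with 1397.2, 290.1 and 395.1 in KY170R, a mean drop of 4.21-fold that missed the threshold at 24 h. Of 12 measured S100 genes, S100P was the other one that was 2-fold lower in all 4 differences, and S100A10 read 26275.6, 23805.6 and 21776.3 in KY170, with 23599.8, 24471.3 and 23420.7 in KY170R, nearly level. CAPS, calcyphosine, read 683.4, 75.6 and 70.4 in KY170, with 437.2, 39.2 and 108.9 in KY170R. Its drop was 9.04-fold to 11.2-fold on 3 later arrays and 4.01-fold at 24 h in KY170R, the smallest of any member.

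The other members were scattered in function. OSCP1 read 351.7, 72.5 and 53.3 in the parental line, then 314.7, 76.1 and 61.9 in the resistant line, lower at 24 h than at 8 h in both at the selected probe. DEF8 read 709.5, 137.8 and 114.3 in KY170, with 711.8, 159.8 and 122.2 in KY170R, almost the same in both lines. SLC50A1, a sugar transporter, read 363.5, 58.1 and 52.9 and then 368.9, 72.0 and 41.3, 5.12-fold to 8.93-fold lower. IFI27L2, of the interferon-inducible IFI27 family, read 197.1, 14.8 and 36.9 and then 231.7, 38.5 and 36.5. For DEF8, SLC50A1 and IFI27L2 the lines were within 1.18-fold of each other at 0 h. TNNT1, the slow skeletal troponin T, read 181.2, 38.3 and 36.4 in KY170, with 267.5, 44.4 and 57.3 in KY170R. AMHR2, the receptor of anti-Müllerian hormone, read 170.9, 21.1 and 37.3 and then 238.0, 14.5 and 42.5, below the limit at 8 h and above it at 24 h in both lines. The remaining members, PRRT3, TESMIN, MPND, WBP1, TMEM120A, CCDC85B and LBX2, had 0 h intensities of 115.8 to 263.6 and later ones of 12.9 to 57.1.

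The threshold cut through a continuous range. Just inside it lay CAPS, S100A8, LBX2, CCDC28B and CRB3, with smallest drops of 4.01-, 4.02-, 4.04-, 4.1- and 4.11-fold. Just outside lay ICAM4, POLD4, AP4M1, SPAG4 and ROGDI, with 3.96-, 3.96-, 3.94-, 3.92- and 3.91-fold. A threshold of 3-fold would have taken 141 genes and one of 8-fold none.

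Whether the drop was seen at more than 1 probe of a gene was looked at in the other probes of the same genes. The rule had screened these probes and not selected them, so each fell short of 4-fold in at least 1 difference by construction. They read the same RNA on the same arrays and are no independent repeat. There were 17 such probes for 13 genes, and 13 of them, for 10 genes, were above the limit on both 0 h arrays. Of these 13 probes, 12 were lower on all 4 later arrays and 8 were at least 2-fold lower in all 4 differences, while 7.11% of the 11670 named probes above the limit at 0 h were. Their median of the mean log2 changes was -1.6, against -0.18 for those 11670. All 13 had a smaller mean drop than the probe the rule had chosen, which was chosen for its drop. The second CAPS probe read 528.9, 136.4 and 82.8 in KY170, with 486.6, 40.4 and 77.4 in KY170R. The second CCDC28B probe read 424.6, 87.9 and 118.5 and then 423.4, 77.6 and 105.8. For both genes the second probe was at least 3-fold lower on every later array. A second probe of OSCP1 read 238.1, 52.7 and 69.3 and then 279.6, 64.1 and 101.6, and another (ILMN_1658206) read 100.9, 28.5 and 48.6 and then 118.2, 21.7 and 65.2. Both were below 0 h on all 4 later arrays, but both were higher at 24 h than at 8 h in both lines, the reverse of the selected probe. The second DYNLT2B probe read 166.2, 102.0 and 54.8 and then 381.0, 215.0 and 72.3, lower at 24 h in both lines, where the selected probe differed between the lines.

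For other genes the probes disagreed. DEF8 had a probe at 876.7, 361.5 and 259.2 in KY170, with 1174.4, 381.0 and 349.4 in KY170R, and another (ILMN_1767509) at 763.0, 785.8 and 638.6 and then 716.1, 598.5 and 455.3. The latter had a mean log2 change of -0.28. The other SLC50A1 probe read 4354.6, 2151.5 and 3004.1 in KY170, with 4464.8, 1844.1 and 2678.5 in KY170R. The second SULT2B1 probe read 367.4, 290.4 and 227.9 and then 484.0, 179.0 and 145.6. These 3 genes carried the smallest drops of any second probe, and the transcripts that each probe reads are not annotated in the files. WBP1, of which the selected probe had only bounds, had a second probe at 1116.7, 547.6 and 322.1 in KY170, with 1752.3, 515.8 and 479.2 in KY170R. The second probes of SULT2B1 (a further one), LRRC26, TESMIN and FUT6 were below the limit on all 6 arrays and say nothing on their genes.

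**Figure D2:**
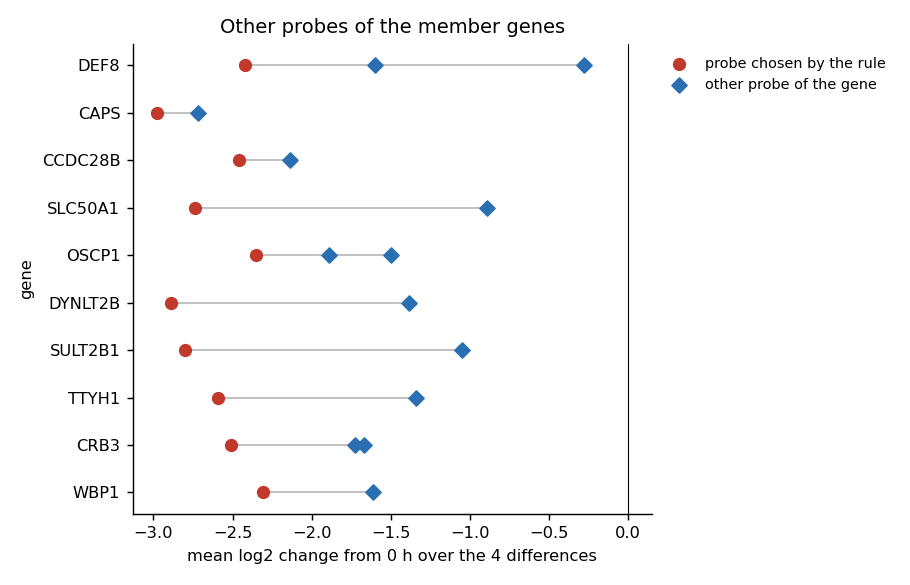
Mean log2 change from 0 h over the 4 differences for the probe chosen by the rule (red circles) and for the other probes of the same gene above the limit at 0 h (blue diamonds), 10 genes. All 13 other probes lie to the right of the chosen one and all lie below 0, from CAPS close to the chosen probe to 1 probe of DEF8 near 0.

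The difference in level between the lines was not used by the rule and was tested. The limma fit took time point and line as factors over all 6 arrays, with p-values adjusted over 17433 probes. It is a test against the spread between these arrays, since nothing says that they came from separate cultures. For the members that spread is not free of the rule. It comes from how the line difference varied over the 3 times, and the rule and the limit bound those changes. For S100A8 both later KY170 arrays were at the limit, so its small spread (SD 0.13 over the 3 times) was partly set by them. KY170R was higher at 141 probes (0.809%) and lower at 122 (0.7%), and 15.9% had an unadjusted p under 0.05. Of the 34 members, 1 was called, S100A8, and 6 had an unadjusted p under 0.05. S100A8 was higher in KY170R at all 3 times, 3.24-fold at 0 h and at least 3.65-fold and 3.84-fold at 8 h and 24 h, with a log2 difference of 1.83 ± 0.25 (SE, adjusted p = 0.0157 in limma, 6 arrays). Its call was lost when any 1 of the 3 time points was left out, with differences of 1.78 to 1.9 and adjusted p of 0.265 to 0.447. The limma differences of the other members ran from -0.86 ± 0.24 for TERC (SE, adjusted p = 0.136) to 0.99 ± 0.31 for PLA2G10 (SE, adjusted p = 0.171). The median over the members was 0.08 and over all tested probes -0.003, and 19 of 34 members were higher in KY170R.

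At 0 h, where every member was measured, the ratio of KY170R to KY170 ran from 0.426 for CLDN3 to 3.24 for S100A8. KY170R was higher for 17 members and lower for 16, and DEF8 was level. Only 9 members differed by 1.5-fold or more in either direction and 4 by 2-fold or more, namely S100A8, CLDN3, PLA2G10 and B3GALT4. With 1 array per line and time these ratios have no error of their own.

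The 24 h and 8 h arrays were compared in the same kind of fit. Of 17433 probes, 798 (4.58%) were higher and 659 (3.78%) lower at 24 h. For the members this is a description, since the rule held both times at least 4-fold below 0 h and 18 of the 34 members had a later array at the limit, so no count of called members is read against these shares. The largest log2 difference downwards was that of H4C12, -0.77 ± 0.25 (SE), and the largest upwards were those of CATSPER1, 0.9 ± 0.35 (SE), and B9D1, 0.89 ± 0.31 (SE). For WBP1 and FUT6, at the limit on all later arrays, this comparison cannot show a difference. Among the 16 members measured on all 6 arrays, 5 were higher at 24 h than at 8 h in both lines, 7 were lower in both and 4 differed between the lines, each by its selected probe. This order can depend on the probe, as for OSCP1. No member returned to within 4-fold of its 0 h level by 24 h, which the rule fixes.

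**Figure D3:**
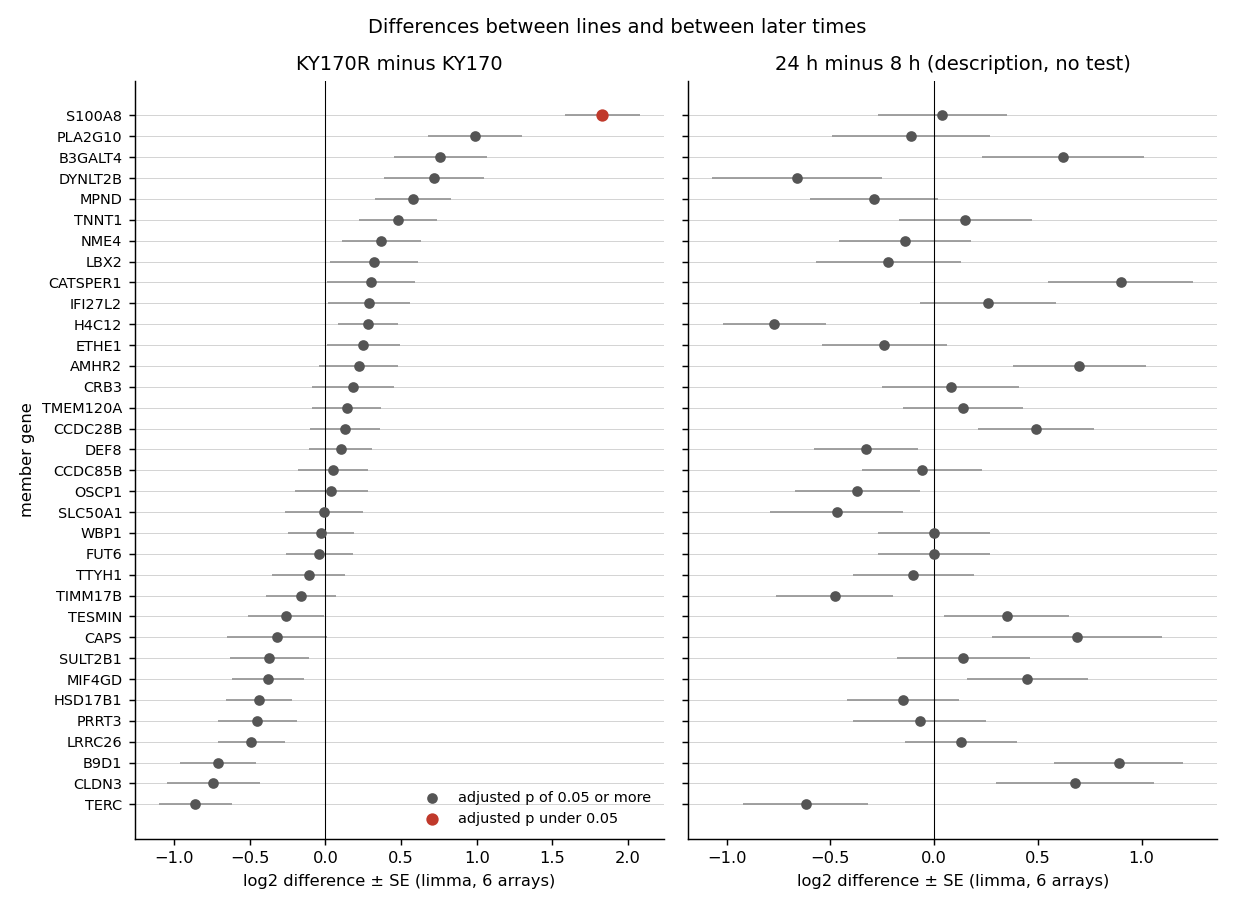
Log2 difference ± SE from limma (6 arrays) between KY170R and KY170 (left) and between 24 h and 8 h (right) for the 34 genes, ordered by the difference between lines. S100A8 at 1.83 is the 1 gene with an adjusted p under 0.05 for the lines (red), and the values on the right, which the rule bounds, are a description.

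The size of the drop was also set side by side between the lines, as the interaction of line with the later times. This term is made of the same differences that chose the members, so their values in it are a description and carry no test. Over all 17433 probes limma called none in either direction (0.0%), and 325 (1.86%) had an unadjusted p under 0.05. For the members the log2 change in KY170R minus that in KY170 ran from -0.78 for CRB3 to 0.82 for CATSPER1. The SE ran from 0.42 to 1.02. A negative value means a larger drop in KY170R as far as the limit lets it be seen, and a positive value a smaller one. For CRB3, 3 later arrays were at the limit, so its value largely reflects the 0 h ratio of 1.63. The brighter CRB3 probe (ILMN_1723092) had log2 changes of -1.91 and -1.52 in KY170 and of -1.78 and -1.7 in KY170R. It thus showed no larger drop in KY170R at 8 h. The drops of the lines are not shown to be alike by this, since the rule asked for a drop in both. Where all later arrays were at the limit, as for WBP1 and FUT6, the value only restates the difference at 0 h.

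A property of the genes that the rule had not used was their span on the genome, taken from RefSeq on GRCh38.p14 from the first to the last annotated base, introns included. The members were short. Their median span was 7.32 kb (quartiles 2.33 and 20.2 kb), and 22 of 34 (64.7%) spanned under 10 kb and none over 50 kb. The 7171 genes with a span that could have passed had a median of 25.8 kb, with 24.6% under 10 kb and 29.4% over 50 kb. Since span may go with the 0 h level, the same was taken over genes within their range of 0 h intensities: 4233 genes had a median of 32.5 kb, with 18.9% under 10 kb. The 85 genes with a lasting 4-fold rise, by the mirror of the rule, had a median of 43.7 kb, with 5.88% under 10 kb and 44.7% over 50 kb. The shortest members were H4C12 with 387 bases, TERC with 0.45 kb and CCDC85B with 0.96 kb, and the longest SULT2B1 with 47.3 kb, TESMIN with 46.7 kb and B9D1 with 43.2 kb.

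A gradient in the same direction ran through all probes that could have passed, members included. When the probes that could have passed were split by span into 5 classes of equal size, the median of the mean log2 change was -0.75, -0.51, -0.13, 0.18 and 0.35 from the shortest (up to 8.25 kb) to the longest (from 73.4 kb), and 19, 5, 7, 3 and 0 members fell into these classes. The gap between the outer classes was 0.72 on the 8 h arrays and 1.46 on the 24 h arrays, 0.83 in KY170 and 1.3 in KY170R. Across 8692 probes, Spearman's rho between span and change was 0.22 at 8 h and 0.40 at 24 h in KY170, with 0.32 and 0.46 in KY170R. These are descriptions over probes that share the same 6 arrays. Members thus came mostly from the class of genes whose signal was lower as a whole.

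**Figure D4:**
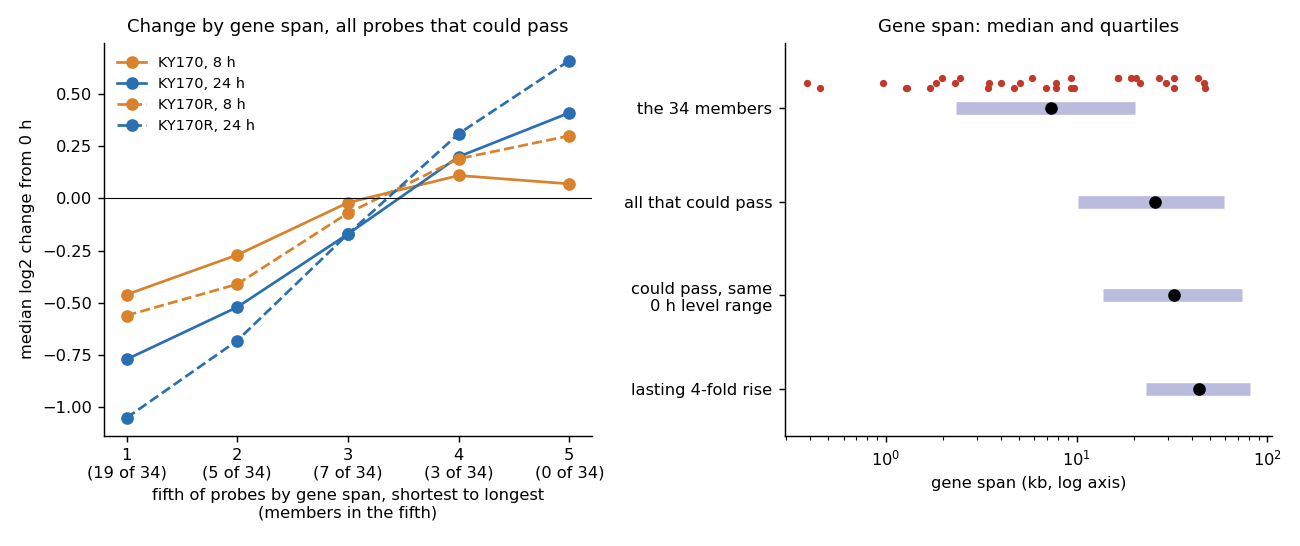
Left, median log2 change from 0 h by class of gene span for the probes that could pass the rule, for each line and later time. Right, median (black) and quartiles (bar) of gene span in kb (log axis) for the 34 members (red points), for genes that could pass, for those of the same 0 h range and for genes with a lasting rise: the medians are 7.32, 25.8, 32.5 and 43.7 kb.

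The members were also unevenly spread over chromosomes. Chromosome 19 held 8 of 34 (23.5%) against 7.29% of the genes that could have passed, and chromosomes 16, 17 and 19 together held 14 (41.2%) against 19.4%. The genes with a lasting rise had 5.88% on these 3. FUT6 and CAPS lay on chromosome 19 with 4 protein-coding genes between them, CAPS and CRB3 with 12, WBP1 and LBX2 on chromosome 2 with 4, and CCDC85B and CATSPER1 on chromosome 11 with 8. Of 46 measured genes that lie next to a member, 4 (8.7%) were 2-fold lower in all 4 differences, namely DBNDD1, STAP2, SH3GL1 and FUT3, against 6.18% of all measured genes, and PPP4R4 was 2-fold higher. The median mean change of these 46 was -0.8, against -0.07 over all measured genes. That comparison was not matched for span or chromosome, and the shortest class of probes that could have passed had a median of -0.75. Whether lying next to a member plays a part was not tested.

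Promoters from 250 bases before to 50 after the start were found in RefSeq (GRCh38.p14) for 26 of the 34 members. Their GC content had a median of 64.5%, against 65.7% for 5999 genes that could have passed and 58.3% for all 27305 promoters of the table. Motifs were searched by exact letters on both strands. The GC box, GGGCGG, was in 84.6% of member promoters, against 72.8% and 44.6% of those 2 sets. The CCAAT box had 46.2% against 38.4% and 35.7%, and the E-box with letters CAGGTG had 30.8%, 8 of 26, against 17.9% and 20.6%. The other E-box, CACGTG, was in 3.85% against 11.1% and 7.43%. The TATA box, TATAAA, was in 7.69% (H4C12 and TNNT1) against 5.05% and 12%, and the ETS site, CCGGAAG, in 19.2% against 20.9% and 10.7%. The AP-1 site, TGAGTCA, was in 7.69% against 2.93% and 4.92%, and the cAMP element by its full palindrome in 0.0% against 3.55% and 1.98%. With 26 promoters, 1 promoter is worth nearly 4 percentage points, and a match of letters is not a bound site.

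The 150 bases just before the start are shown for 5 members, LRRC26 for its 0 h intensity, CLDN3 and CRB3 as the junction and polarity pair, H4C12 as a member with a TATA box and NME4 for its run of GC boxes. They are written 5′ to 3′ on the strand of the gene, and capitals mark the motifs above, on either strand (a GC box on the opposite strand reads CCGCCC and a CCAAT box ATTGG). The positions on GRCh38.p14 are chr9:137170052-137170201 (minus strand) for LRRC26, chr7:73770271-73770420 (minus) for CLDN3, chr19:6464121-6464270 (plus) for CRB3, chr6:27831561-27831710 (minus) for H4C12 and chr16:397049-397198 (plus) for NME4.
LRRC26: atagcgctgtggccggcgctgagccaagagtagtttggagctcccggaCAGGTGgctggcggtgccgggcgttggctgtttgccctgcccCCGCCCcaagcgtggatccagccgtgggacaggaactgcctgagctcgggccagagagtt
CLDN3: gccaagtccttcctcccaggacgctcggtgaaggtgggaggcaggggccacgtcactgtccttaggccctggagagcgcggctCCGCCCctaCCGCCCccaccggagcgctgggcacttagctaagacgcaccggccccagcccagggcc
CRB3: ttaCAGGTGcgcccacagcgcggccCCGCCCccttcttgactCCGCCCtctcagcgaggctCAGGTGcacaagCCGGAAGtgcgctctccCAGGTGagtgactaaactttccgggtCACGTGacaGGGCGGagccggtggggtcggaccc
H4C12: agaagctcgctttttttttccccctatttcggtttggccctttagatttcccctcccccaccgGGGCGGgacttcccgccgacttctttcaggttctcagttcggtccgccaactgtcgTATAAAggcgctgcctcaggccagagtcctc
NME4: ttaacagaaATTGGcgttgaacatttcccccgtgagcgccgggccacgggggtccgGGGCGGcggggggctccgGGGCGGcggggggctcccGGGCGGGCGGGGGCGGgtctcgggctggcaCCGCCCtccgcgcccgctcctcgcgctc
CRB3 held 8 matches in these bases, 3 of them GC boxes, and NME4 held 7, 6 of them GC boxes that partly overlap. LRRC26 and H4C12 each held 1 GC box. CLDN3 held 2 GC boxes and no CAGGTG here, since its match lay elsewhere in the 300 bases searched. The 5 promoters shared the GC box, which is also the commonest motif of the genes that could have passed.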

How the data were processed

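Total RNA from KY170 and KY170R at 0, 8 and 24 h was measured on Illumina Human-6 V3 arrays, 1 array per group. The deposited table holds linear probe intensities that the authors collected with BeadStudio (version not given in the sources used here). From their distribution, background had been subtracted and arrays normalized, by a method not given in the sources used here. No detection p-values were used, and array number limits the precision.

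Here, intensities were raised to the limit of 24.533 and turned into log2. Genes were named from the platform annotation: 27578 probes had 1 symbol, 13 several and 21212 none, and 27541 had an Entrez identifier in the RefSeq table of GRCh38.p14, which gave spans, neighbours and promoters. Each gene of a list was represented by its brightest probe among those above the limit on at least 2 arrays. Members named were the 10 brightest at 0 h, the 10 with the largest smallest drop, the 10 brightest later among those measured on all arrays, those on a list, those near the threshold, those with extreme second probes, and those called in a test. Other members and families were named after their values were seen. The members, the 32 lists and the tests were chosen with earlier results of these data known.

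Probes above the limit on at least 2 arrays were tested with limma 3.58.1 in R 4.3.3 (lmFit and eBayes, trended and robust, two-sided, Benjamini-Hochberg, call under 0.05), and the script was tested on simulated data. Tables were made in Python 3.11.15 with pandas 2.3.3. Alternatives were other floors, quantile normalization, centring, other thresholds and filters, an untrended fit, time points or lines left out, and the methods' t-test.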

Additional observations from a re-analysis of the deposited data

How the results depend on the processing

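The deposited arrays already had nearly the same distribution, so quantile normalization and centring could change little. The number of members was 34 under both, and 42 with a floor of 12.3. It was 16 with a floor of 49.1, 168 with a floor of 1, 141 at a threshold of 3-fold and 0 at 8-fold. It was 122 without the KY170R arrays, 117 without the KY170 arrays, 121 without the 8 h arrays and 205 without the 24 h arrays. All 34 were among the genes taken under each alternative except the floor of 49.1, which took 16 of them, and the 8-fold threshold. A higher floor takes fewer genes by construction, since less of a drop can be seen. For KY170R against KY170, the count of called members went from 1 to 0 with a floor of 49.1, without the 0 h, the 8 h or the 24 h arrays and by the methods' t-test, which called 6 probes in all. S100A8 kept its direction in all 12 alternatives and was called in 7. Its log2 difference was 1.17 (adjusted p = 0.378 in limma) with a floor of 49.1, and by the methods' t-test the adjusted p was 1.0. Over all probes that comparison called 263 in the main setting, 0 with a floor of 49.1, 111 with 1 prior variance for all probes, 576 with a floor of 12.3, 594 with probes above the limit on at least 4 arrays and 899 with no filter. Counts of called members for the next 2 comparisons are given for completeness, since the rule used or bounded the values compared. For 24 h against 8 h, 2 members were called with a floor of 12.3 (B3GALT4 and CLDN3), 1 with a floor of 1 (CLDN3) and 0 in the other settings. Over all probes that comparison called 1457 in the main setting, 0 with 1 prior variance for all probes or on the 8 h and 24 h arrays alone, 5 with a floor of 49.1, 2176 with a floor of 12.3, 2346 with no filter and 2439 with probes above the limit on at least 4 arrays. For the difference in drop between the lines, 8 members were called with a floor of 49.1, where all later arrays of those members sit at the floor and have no spread, and 0 in each other setting. Over all probes that comparison called 864 of 17433 with a floor of 49.1 and 31049 of 48803 with no filter. How many of these sat at the floor was not counted. The count of 8 other probes held under both floors tried. The gap between the outer classes of gene span was 0.72 on the 8 h arrays against 1.1 over all, and between 0.83 and 1.46 in the other settings, which were chosen after seeing the data. The fit of the lines already compares them within each time point. No further paired analysis by replicate number was possible because each group holds 1 array. Of the 34 members, 18 had at least 1 later array at the limit, and there the drop is a lower bound.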
